A study of Mus musculus with 10 samples.

Results

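The immunoglobulin heavy chain variable genes (Ighv) were examined in spleens taken at day 9 from DUSP6 KO and WT mice with arthritis induced by KRN serum (KSIA). Members were all rows of the gene expression table with the biotype IG_V_gene and a symbol that starts with Ighv, which were 113 of 54532 genes. There were 5 DUSP6 KO spleens, replicates 26, 21, 73, 01 and 03, and 5 WT spleens, replicates 65, 67, 73, 77 and 83, with 1 RNA library per spleen. DUSP6 KO mice carried the Dusp6tm1Jmol allele, which the labels call a knockdown and the methods a knockout, and WT mice were C57BL/6J. Littermate controls were not described in the sources used here. All mice, aged 8 to 12 weeks, had received 100 µL of arthritogenic serum by intraperitoneal injection on days 0 and 2, so no spleen was free of arthritogenic serum. The labels give no sex for single animals, and all 10 libraries held Y-linked Ddx3y transcripts. The deleted gene was at 16.6 to 23.98 FPKM in the WT spleens and 0.308 to 0.624 FPKM in those labelled DUSP6 KO.

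A heavy chain is encoded by a V, a D and a J segment that are joined in each developing B cell, so that a B cell and its descendants mostly transcribe 1 Ighv gene. Usage of an Ighv gene in a spleen thus reflects how many B cells carry it and how much heavy chain RNA they make, and plasma cells make far more of it than resting B cells. In bulk tissue, fewer cells of a type and less RNA per cell cannot be told apart. In this model the arthritis is transferred by antibodies in the injected serum. The question here was whether the spleens of DUSP6 KO mice transcribed their Ighv genes at another level or in other proportions than those of WT mice.

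All 113 members lie on the minus strand of chromosome 12 (GRCm38, 113578504 to 116000461), within 2.42 Mb, and 111 have 2 exons, a leader exon and the V exon. Gene lengths were 294 to 480 bases. To show what is counted, the last 150 bases of the transcript are printed for 7 members. Ighv1-26 had the highest mean share, and Ighv12-3 is a member used by B-1 cells. The others reached a high share in few of the spleens. Sequences are from the GENCODE M21 transcripts (GRCm38) and run 5′ to 3′. Capitals mark the letters CTGTGC, which hold the codon of the conserved cysteine at the end of the V exon.
Ighv1-26, chr12:114788372-114788521, minus strand: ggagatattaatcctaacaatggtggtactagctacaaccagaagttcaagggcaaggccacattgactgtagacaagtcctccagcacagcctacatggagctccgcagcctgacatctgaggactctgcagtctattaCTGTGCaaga
Ighv3-6, chr12:114288152-114288301, minus strand: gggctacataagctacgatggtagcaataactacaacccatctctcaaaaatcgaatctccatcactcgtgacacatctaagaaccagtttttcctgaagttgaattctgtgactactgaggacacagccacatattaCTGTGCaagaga
Ighv8-8, chr12:115294062-115294211, minus strand: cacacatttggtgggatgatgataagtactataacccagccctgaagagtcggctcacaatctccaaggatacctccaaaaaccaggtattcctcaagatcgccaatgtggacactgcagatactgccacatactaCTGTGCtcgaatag
Ighv1-82, chr12:115952538-115952687, minus strand: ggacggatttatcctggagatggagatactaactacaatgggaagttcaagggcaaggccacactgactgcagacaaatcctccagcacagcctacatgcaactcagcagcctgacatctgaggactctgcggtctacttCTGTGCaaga
Ighv1-66, chr12:115593110-115593259, minus strand: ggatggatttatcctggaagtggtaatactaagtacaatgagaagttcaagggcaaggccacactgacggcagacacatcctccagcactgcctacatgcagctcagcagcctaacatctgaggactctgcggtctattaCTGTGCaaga
Ighv1-62-2, chr12:115446409-115446558, minus strand: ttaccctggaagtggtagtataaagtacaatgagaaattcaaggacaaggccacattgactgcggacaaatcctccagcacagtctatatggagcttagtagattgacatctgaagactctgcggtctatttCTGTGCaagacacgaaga
Ighv12-3, chr12:114366521-114366670, minus strand: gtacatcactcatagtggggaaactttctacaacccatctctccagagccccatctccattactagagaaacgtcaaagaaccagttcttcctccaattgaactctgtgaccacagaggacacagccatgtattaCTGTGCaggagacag
CTGTGC was found on the transcript strand within the last 30 bases of 86 of 113 members (76.1%) and of 1622 of 141722 GENCODE transcripts (1.14%). The members are close copies of one another, which limits how well reads can be told apart. Of all 113 members, 75 had no stretch of 100 bases in common with another transcript, and in 20 members fewer than 90% of these stretches were unique. Those 20 made up 11.2% of the mean usage, and the highest of them was at 1.58%. To show how close the copies are, 2 pairs of near relatives are printed, with capitals at the bases that differ within the pair.
Ighv2-4, chr12:113653291-113653440, minus strand: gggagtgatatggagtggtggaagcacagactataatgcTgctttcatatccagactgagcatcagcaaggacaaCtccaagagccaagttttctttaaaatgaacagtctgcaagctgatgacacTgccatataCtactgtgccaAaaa
Ighv2-2, chr12:113588267-113588416, minus strand: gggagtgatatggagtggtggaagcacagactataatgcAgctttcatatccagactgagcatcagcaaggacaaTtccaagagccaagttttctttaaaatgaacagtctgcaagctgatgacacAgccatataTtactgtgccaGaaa
Ighv1-62-3, chr12:115460999-115461148, minus strand: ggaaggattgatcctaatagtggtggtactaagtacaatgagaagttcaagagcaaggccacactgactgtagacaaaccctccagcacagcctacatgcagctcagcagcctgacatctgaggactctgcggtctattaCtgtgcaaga
Ighv1-72, chr12:115757984-115758133, minus strand: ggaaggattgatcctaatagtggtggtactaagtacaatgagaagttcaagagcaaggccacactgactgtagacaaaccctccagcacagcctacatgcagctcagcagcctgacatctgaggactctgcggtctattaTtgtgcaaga
In these 150 bases Ighv2-4 and Ighv2-2 differ at 5 positions, and Ighv1-62-3 and Ighv1-72 at 1 position. Ighv1-62-2 is identical to Ighv1-71 over the last 290 bases of the shared V sequence, and 9.68% of its 100-base stretches were unique.

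Transcripts of Ighv genes were abundant in every spleen, and their summed level overlapped between the groups. Summed over the 113 members, the level was 3564, 4630, 5224, 3130 and 3644 FPKM in DUSP6 KO replicates 26, 21, 73, 01 and 03. In WT replicates 65, 67, 73, 77 and 83 it was 2773, 3167, 7163, 6187 and 5273 FPKM. The WT values fell on both sides of most DUSP6 KO values, with replicates 65 and 67 low and the other 3 spleens high. The mean of 5 spleens was 4913 ± 1900 (SD) for WT and 4038 ± 860 (SD) for DUSP6 KO, which is a log2 ratio of −0.28 for DUSP6 KO over WT. As a sum over the members it was given no test. Without WT replicates 65 and 67 the log2 ratio was −0.62, and with each library left out in turn it was −0.43 (WT replicate 65) to −0.11 (WT replicate 73). The direction turned on other scales. Per FPKM of Ighm, the constant gene of IgM, means were 1.24 in DUSP6 KO and 1.001 in WT, a log2 ratio of 0.31. Per summed FPKM of heavy chain constant genes they were 0.81 and 0.77, a log2 ratio of 0.067. The groups overlapped on both scales.

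**Figure D1:**
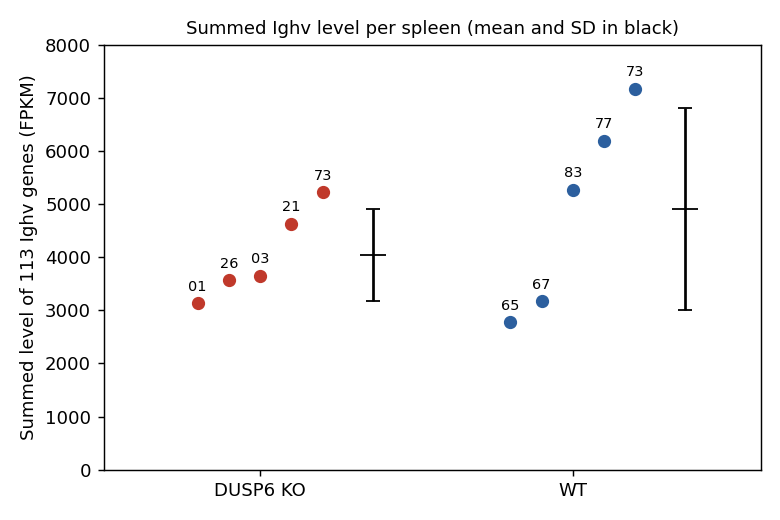
Summed FPKM of the 113 Ighv genes (vertical axis, linear from 0) for each spleen, grouped as DUSP6 KO (red) and WT (blue) and marked by replicate number. Black bars give the mean and SD of 5 spleens. The groups overlap, with WT replicates 65 and 67 low and WT replicates 73, 77 and 83 above every DUSP6 KO spleen.

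Reads recovered from the values numbered 14990474 to 19822673 per library, of which 17482 to 45349 (0.112 to 0.277%) fell on Ighv genes. WT replicates 67 and 65 also stood apart in another respect: 12 genes of the exocrine pancreas, a tissue next to the spleen, summed to 18530 and 230.8 FPKM there and to 9.55 to 26.2 FPKM in the other 8 libraries. RNA of another tissue lowers the FPKM of all spleen genes but leaves usage, a share within the Ighv genes, on its own scale, and its part in the level was not tested. Usage is therefore given beside the level throughout.

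No plasma cell, germinal centre or B-1 cell marker gene passed the limma test with Benjamini-Hochberg adjustment. Among 10 plasma cell genes, 3 had an unadjusted p under 0.05 and were lower in DUSP6 KO, against 3.03% of all genes tested, namely Xbp1, which drives secretory capacity, and Edem1 and Derl3, which act in protein quality control of the endoplasmic reticulum, and 0 passed the adjustment (lowest adjusted p = 0.56). Log2 fold changes of the other plasma cell genes were 0.013 for Jchain, 0.087 for Tnfrsf17, −0.13 for Prdm1 and −0.16 for Irf4. They were −0.17 for Sdc1, −0.19 for Mzb1 and −0.47 for Fkbp11. The summed FPKM of all 10 plasma cell genes was 510.5 to 1024 in WT spleens and 527.4 to 791.4 in DUSP6 KO spleens. None of 12 B cell genes had an unadjusted p under 0.05 (median log2 fold change −0.18). Their summed FPKM was 864.1 to 1935 in WT spleens and 759.9 to 1495 in DUSP6 KO spleens. It was highest in WT replicate 67 and lowest in DUSP6 KO replicate 73. Among 8 marginal zone B cell genes, Asb2 was higher and Pdia4 lower at that threshold, against 2.62 and 3.03% of all genes, with 0 after adjustment. None of 9 tested germinal centre genes and none of 8 B-1 cell genes had an unadjusted p under 0.05. For the 4 heavy chain joining genes the count was 0 and the median log2 fold change −0.31. Among 8 heavy chain constant genes, only Ighg3 had an unadjusted p under 0.05, and was lower, against 3.03% of all genes (log2 fold change −1.13, limma adjusted p = 0.82), and Ighm, the constant gene of IgM, had a mean FPKM of 4871 ± 1656 in WT and of 3326 ± 652 in DUSP6 KO (SD, n = 5 each). Of 12 genes of V(D)J recombination, 10 were tested and 1, the end-joining gene Xrcc5, was higher at an unadjusted p under 0.05, against 2.62% of all genes (log2 fold change 0.21, limma adjusted p = 0.86). Of 11 neutrophil genes, 6 were lower at that threshold, against the same 3.03% of all genes, with 0 after adjustment, and their summed FPKM was 1146 to 5102 in WT spleens and 591.6 to 2017 in DUSP6 KO spleens.

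Usage was spread over many genes. Of the 113 members, 41 were enough to reach 80% of the mean usage, 37 had a mean share above 1%, and the 15 highest made up 49.2%. The gene with the highest mean share was Ighv1-26, at 5.19, 5.67, 5.65, 4.59 and 13.7% of summed Ighv FPKM in DUSP6 KO replicates 26, 21, 73, 01 and 03. In WT replicates 65, 67, 73, 77 and 83 it was at 7.25, 5.45, 6.99, 8.92 and 4.85%. Apart from DUSP6 KO replicate 03, all spleens lay between 4.59 and 8.92% and the groups overlapped. Ighv3-6 followed, at 2.80, 4.14, 3.39, 11.3 and 4.27% in DUSP6 KO and 2.97, 2.50, 3.84, 3.52 and 9.92% in WT, in the same order of replicates, which is kept below. A single spleen of each group thus stood far above the others for this gene. Ighv1-53 was more even, at 5.98, 4.80, 2.80, 3.27 and 3.38% in DUSP6 KO and 4.99, 4.89, 3.32, 4.84 and 3.36% in WT. Among the next members, group means were 3.31 ± 2.04% in DUSP6 KO and 4.23 ± 1.57% in WT for Ighv1-9, 3.36 ± 1.56% and 3.37 ± 1.27% for Ighv1-55, and 3.48 ± 1.26% and 3.19 ± 0.714% for Ighv9-3 (SD, n = 5 each). With all libraries, the means of these 3 genes differed by less than the SD of either group. For Ighv1-9 the difference was −0.93 percentage points. It was −1.68 without DUSP6 KO replicate 73 and −0.48 without WT replicate 67. Of the 15 highest genes, 1, Ighv6-3, had an unadjusted p under 0.05 for usage, against 2.63% of all genes that were higher and 3.03% that were lower at that threshold, and its values are given below. The order within the 15 rests on small steps, since neighbours such as Ighv1-9 and Ighv1-82, or Ighv7-3 and Ighv5-17, differed in mean share by less than their SD.

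**Figure D2:**
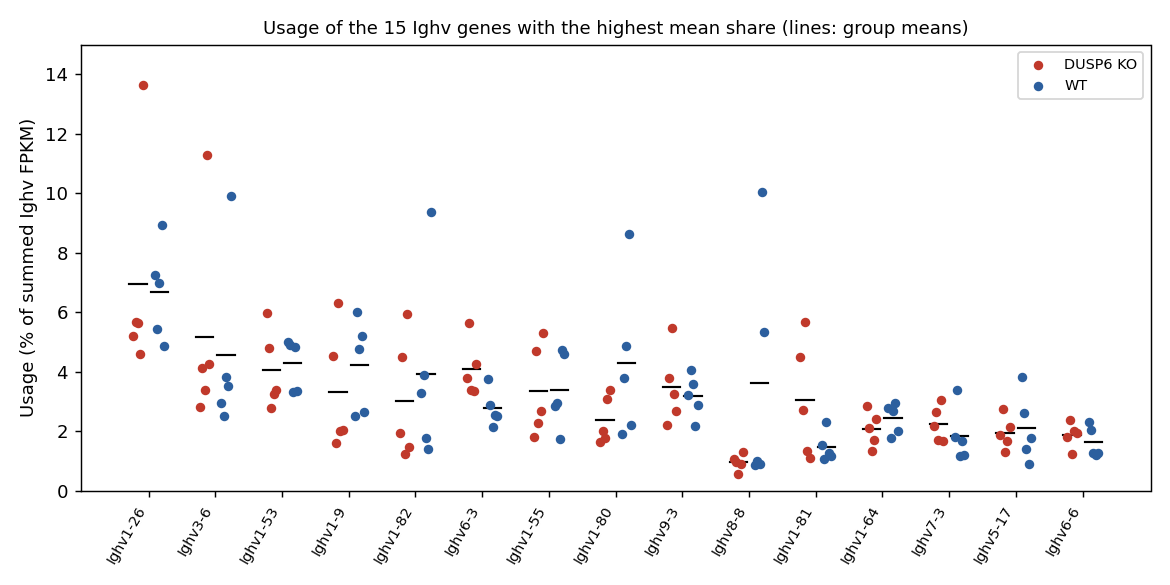
Usage of the 15 Ighv genes with the highest mean share, in percent of the summed Ighv FPKM of each spleen (vertical axis, linear), for 5 DUSP6 KO (red) and 5 WT (blue) spleens, with lines at the group means. Single spleens stand above the rest for Ighv1-26 (13.7%), Ighv3-6 (11.3 and 9.92%), Ighv1-82 (9.38%), Ighv1-80 (8.65%) and Ighv8-8 (10.03 and 5.33%).

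Along the locus, the members were taken as D-proximal (19 genes, up to Ighv2-9), intermediate (29 genes) and distal (65 genes, from Ighv8-2), limits that were set after usage was seen. Ighv2 and Ighv5 genes fill the D-proximal end and Ighv1 and Ighv8 genes most of the distal end. Distal genes made up 60.8 ± 5.62% of usage in DUSP6 KO and 65.6 ± 5.07% in WT (SD, n = 5 each). Their share was 65.1, 56.8, 66.0, 53.1 and 62.8% in DUSP6 KO and 61.7, 64.2, 65.9, 74.1 and 61.9% in WT, with overlap. D-proximal genes held 13.2 ± 0.959% in DUSP6 KO and 11.3 ± 3.04% in WT, where replicate 77 was lowest at 6.10% and the other 4 spleens lay between 11.1 and 13.7%. The intermediate genes held 26.03 ± 5.03% and 23.2 ± 3.16%, a difference of 2.86 percentage points that was 1.06 without DUSP6 KO replicate 01, at 33.2%, and 5.77 without DUSP6 KO replicates 26 and 73. The D-proximal difference, 1.93 percentage points, was 0.637 without WT replicate 77 and 2.91 without WT replicates 65 and 67. By family, the 53 Ighv1 genes had the highest share, at 48.7 to 61.2% in DUSP6 KO and 53.8 to 62.9% in WT. The 5 Ighv6 genes were at 5.98 ± 1.28% in DUSP6 KO and 4.42 ± 1.10% in WT, and the 9 Ighv8 genes at 2.98 ± 1.27% and 4.88 ± 4.24%. The large SD of Ighv8 in WT came with replicate 77, at 11.7%, and replicate 83, at 6.32%, while the other 3 WT spleens lay between 1.78 and 2.70%. The groups overlapped in the share of all 15 families with reads and all 3 regions, for which no test was run. At the ends of the locus, the D-proximal gene Ighv5-2 had 4 to 42 reads per library, and the most distal gene, Ighv1-85, had 40 to 2384.

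**Figure D3:**
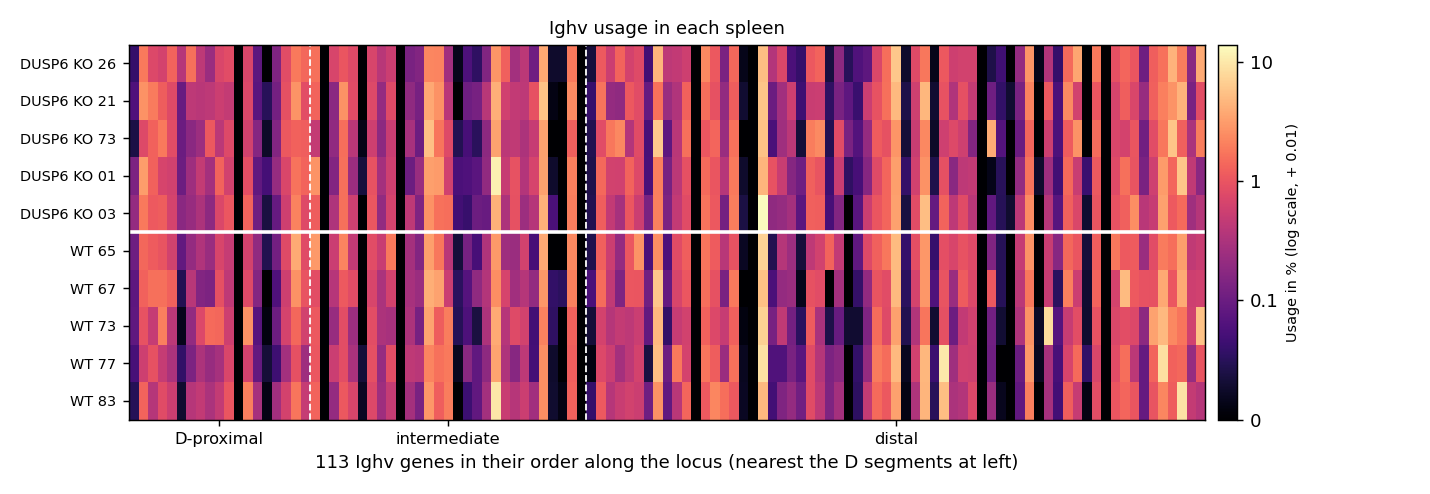
Usage of all 113 Ighv genes (columns, in their order along the locus, with dashed lines between D-proximal, intermediate and distal genes) in each of 10 spleens (rows, DUSP6 KO above and WT below the white line), coloured by share in percent on a log scale. The bright and dark columns run through both groups, and single bright cells mark genes that were high in 1 spleen, such as Ighv1-66 in WT replicate 73 (8.22%).

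Single mice differed widely in usage, within the groups as well as between them. Moving from the usage profile of a spleen to that of another required a shift of 21.6 to 32.3 percentage points within DUSP6 KO (10 pairs, median 26.3), of 21.2 to 32.5 within WT (10 pairs, median 30.02) and of 18.5 to 36.3 between the groups (25 pairs, median 27.3). The smallest shift of all pairs was between DUSP6 KO replicate 21 and WT replicate 65. Over all 45 pairs, Spearman's rho across the members was 0.82 to 0.94, as a description over genes that share a library and are not independent. The residual SD of log2 expression within groups had a median of 0.85 over the 104 tested Ighv genes and 0.75 on the usage scale, against 0.35 over all 21296 genes tested. It was 0.80 over 98 kappa variable genes and 1.17 over 100 T cell receptor variable genes, which are far lower in level, and 0.67 over 13 immunoglobulin constant genes.

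The effective number of genes, the inverse of the summed squared shares, describes how evenly usage was spread. It was 41.2, 38.6, 37.8, 31.4 and 27.8 in DUSP6 KO and 41.5, 38.8, 31.8, 24.5 and 28.2 in WT. Means were 35.4 ± 5.58 and 33.0 ± 7.14 (SD, n = 5 each), with overlap over most of the range. The 5 highest genes of a spleen held 24.1 to 30.9% of usage in DUSP6 KO and 23.1 to 37.7% in WT.

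Each group held spleens in which a single gene was far above its usual share. In all, 22 members had a highest share of at least 1% that was also at least 3 times their median share over the 10 spleens. Ighv1-66 was at 8.22% in WT replicate 73, where it was the highest gene with 4053 reads, and at 0.240 to 1.07% in the other 9 spleens. Ighv8-8 was at 10.03% in WT replicate 77 and 5.33% in WT replicate 83, and at 0.573 to 1.29% in the other 8 spleens. These are the 2 spleens in which the Ighv8 family was high. In WT replicate 73, Ighv1-85 was high as well, at 5.50%, and it was at 3.91% in DUSP6 KO replicate 26 and 0.168 to 1.97% elsewhere. Ighv1-62-2 was at 0.0159, 0.0970, 3.93, 0.00390 and 0.0744% in DUSP6 KO and 0.134, 1.07, 0.103, 0.0952 and 0.218% in WT. It had 1138 reads in DUSP6 KO replicate 73 and 1 to 33 reads in the other DUSP6 KO spleens, and since Ighv1-71 shares its V sequence, the assignment of these reads is uncertain. Ighv1-71 itself was at 0 to 0.0329% in all spleens. Ighv1-75 was at 4.94% in WT replicate 67 and 0.617 to 1.61% elsewhere. Ighv1-80 reached 8.65% in WT replicate 77 and Ighv1-82 9.38% in WT replicate 83.

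Some high genes were shared by DUSP6 KO replicates 26 and 73. Ighv1-81 was at 4.49 and 5.67% there, against 1.12 to 2.71% in the other DUSP6 KO and 1.06 to 2.33% in the WT spleens. Ighv8-12 was at 3.64 and 2.74%, against 0.494 to 1.47% in the other 8 spleens. Ighv1-5 was at 1.29 and 2.32%, against 0.134 to 0.586%. The same 2 spleens had the highest share of switched isotypes among heavy chain constant genes. Igha made up 21.7 and 19.6% of constant gene FPKM there, against 2.99 to 9.62% in the other 8 spleens, and Ighg2c 12.7 and 13.3%, against 1.64 to 5.55%. Ighg2b was also highest there, at 5.85 and 6.46%. Ighg1, at 0.656 and 0.884%, and Ighg3, at 0.783 and 0.786%, lay within the range of the other 8 spleens. Which V gene was joined to which constant gene was not measured. These 2 spleens also had the highest summed FPKM of 8 erythroid genes, at 71920 and 105700, against 20360 to 50090 in the other 8 spleens, and the part of this in their values was not tested. The usage profiles of the pair still differed by a shift of 24.8 percentage points, which is within the range of other DUSP6 KO pairs.

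**Figure D4:**
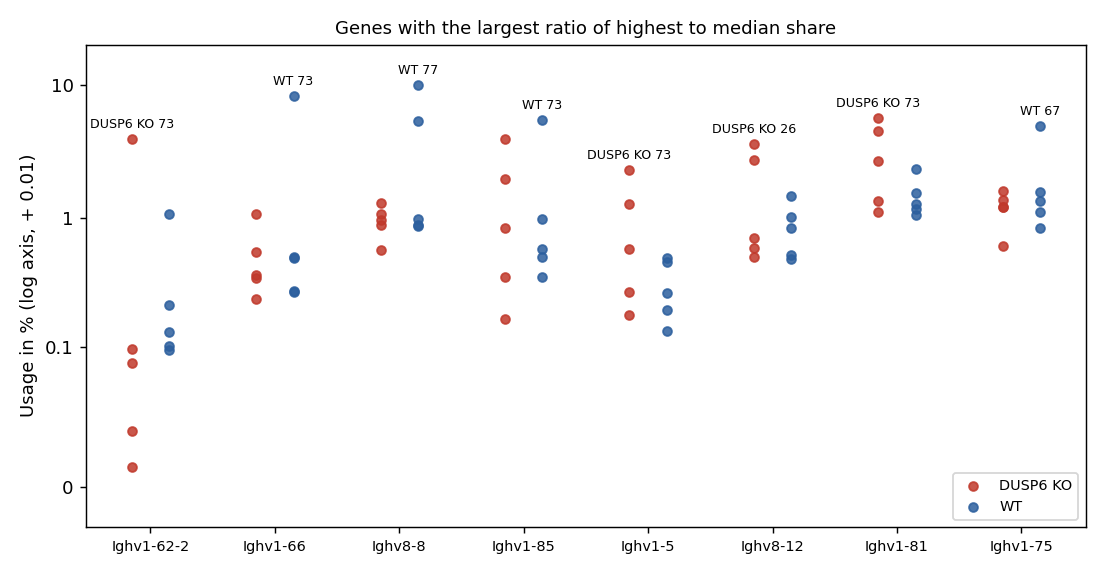
Usage in percent (vertical axis, log scale after adding 0.01) of the 8 Ighv genes with the largest ratio of the highest to the median share among those that reached 2%, for DUSP6 KO (red) and WT (blue) spleens, with the highest spleen named. In both groups a single spleen, or a pair, stands above the others, as for Ighv1-66 in WT replicate 73 (8.22%) and Ighv1-62-2 in DUSP6 KO replicate 73 (3.93%).

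No Ighv gene differed between DUSP6 KO and WT after adjustment over all genes. Of the 113 members, 104 had a mean of at least 0.1 FPKM and were tested, and 8 of the other 9 had no read in any library. In the limma test on log2(FPKM + 0.1) with Benjamini-Hochberg adjustment, 0 of 104 members had an adjusted p of 0.05 or less, against 0.0704% of all 21296 genes tested. At the unadjusted threshold of 0.05, 8 members (7.69%) were higher in DUSP6 KO, against 2.62% of all genes, and 5 (4.81%) were lower, against 3.03%. On the usage scale, where Ighv values were first divided by the summed Ighv level of their library, 0 members passed the adjustment, against 0.0704% of all genes. At the unadjusted threshold, 9 (8.65%) were higher, against 2.63%, and 5 (4.81%) lower, against 3.03%. With limma voom on the recovered reads, 0 members passed on either scale, with 8 higher (2.24% of all genes) and 5 lower (2.78%) for expression and 10 higher (2.24%) and 5 lower (2.78%) for usage at the unadjusted threshold. Values of DUSP6 KO and WT did not overlap for 1 member higher in DUSP6 KO, Ighv2-4 (0.549% of all genes), and for 2 that were lower, Ighv1-12 and Ighv1-61 (0.563%). For usage the higher member was again Ighv2-4 (0.549%), and 0 members were lower without overlap (0.554%). The median log2 fold change of the 104 members was −0.13 for expression and 0.08 for usage, beside −0.0046 for expression over all genes, and 57 members had a positive and 47 a negative change of usage, against 45 and 59 for expression. Counts for lower expression depended on single spleens: 5 became 12 without WT replicate 67 (2.63% of all genes in that fit), 11 without WT replicate 65 (3.18%), 10 without DUSP6 KO replicate 73 (2.98%), 3 without DUSP6 KO replicate 01 (2.29%) and 2 without WT replicate 73 (2.44%). Without both WT replicates 65 and 67, 103 members were tested and 0 passed the adjustment. For expression, 3 were then higher, against 2.24% of all genes in that fit, and 22 (21.4%) were lower, against 2.81%. For usage, 20 (19.4%) were higher, against 2.32%, and 6 were lower, against 2.74%.

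**Figure D5:**
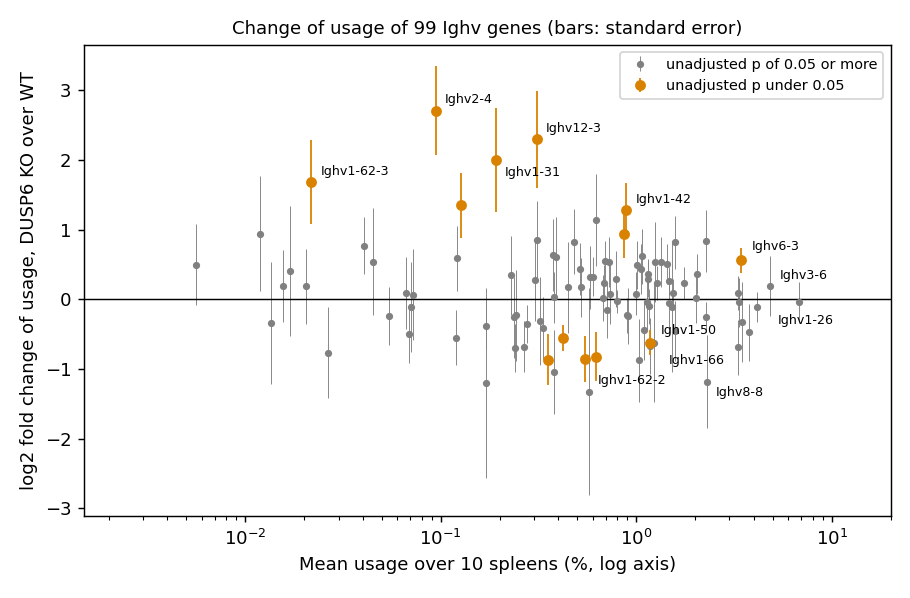
Log2 fold change of usage, DUSP6 KO over WT (vertical axis, with its standard error), against mean usage over 10 spleens (horizontal axis, percent, log scale) for the 99 tested Ighv genes with reads in at least 3 spleens of each group, with those at an unadjusted p under 0.05 in orange. Ighv2-4 and Ighv12-3, with changes of 2.71 and 2.30, have mean shares under 0.4%. Ighv1-42, with a change of 1.28, has a mean share of 0.89%, and the highest genes, Ighv1-26 and Ighv3-6, lie near 0.

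Ighv2-4, a D-proximal gene (ENSMUSG00000095866), had the lowest p on both scales. It was at 0.370, 0.0857, 0.0896, 0.0927 and 0.165% of usage in DUSP6 KO and at 0.0783, 0.0189, 0.00463, 0.0278 and 0.00907% in WT. All DUSP6 KO spleens lay above all WT spleens, with the lowest DUSP6 KO and the highest WT value close together. Its reads numbered 86, 27, 24, 22 and 35 in DUSP6 KO and 13, 4, 2, 10 and 3 in WT. Its log2 fold change was 2.54 for expression (limma adjusted p = 0.30) and 2.71 for usage (standard error 0.64, unadjusted p = 0.0015, limma adjusted p = 0.37). With other settings its adjusted p for usage ranged from 0.16 to 1.0. Its near relative Ighv2-2, which differs by 5 of the printed bases, was far higher, at 0.761 to 3.19% in DUSP6 KO and 0.552 to 1.40% in WT. Of the 100-base stretches of these genes, 75.7 and 75.9% were unique, so some of these reads are uncertain.

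Ighv6-3, of the intermediate part, was the only one of the 15 most used genes with an unadjusted p under 0.05 for usage. It was at 3.798, 5.65, 3.39, 3.36 and 4.27% in DUSP6 KO and 3.76, 2.90, 2.15, 2.55 and 2.50% in WT. WT replicate 65 lay within the DUSP6 KO range and the other WT spleens below it. The log2 fold change of usage was 0.56 (standard error 0.18, limma unadjusted p = 0.0096, adjusted p = 0.63), and that of expression 0.35 (limma adjusted p = 0.96), which was 0.17 without DUSP6 KO replicate 21 and 0.11 without WT replicates 65 and 67. Its sequence had no 100-base stretch in common with another transcript.

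Apart from Ighv1-72, the genes that follow lie outside the rule for named genes and were picked after their values were seen. Ighv1-42 was at 1.32, 0.519, 2.38, 0.983 and 1.21% in DUSP6 KO and 0.607, 0.820, 0.291, 0.360 and 0.428% in WT, a log2 fold change of usage of 1.28 (standard error 0.39, limma adjusted p = 0.58). Only DUSP6 KO replicate 21 lay within the WT range. Ighv8-4 had 5, 22, 32, 6 and 0 reads in DUSP6 KO and 0, 0, 4, 0 and 0 in WT, so that no fold is given or plotted. Ighv1-62-3 had 10, 10, 17, 6 and 5 reads in DUSP6 KO and 4, 5, 5, 0 and 2 in WT, and with a near-identical partner, Ighv1-72, its reads are uncertain. Ighv1-72 itself was at 1.30 ± 0.369% in DUSP6 KO and 1.005 ± 0.251% in WT (SD, n = 5 each). Among genes with lower usage in DUSP6 KO at the unadjusted threshold, Ighv1-50 was at 0.713, 0.943, 1.13, 0.787 and 1.02% in DUSP6 KO and 1.25, 0.988, 1.53, 1.90 and 1.47% in WT (log2 fold change −0.62, standard error 0.18, limma adjusted p = 0.55). Its lowest WT spleen, replicate 67, lay within the DUSP6 KO range. Ighv1-61 was at 0.411 ± 0.171% in DUSP6 KO and 0.683 ± 0.103% in WT (log2 fold change −0.86, limma adjusted p = 0.78; −0.52 without DUSP6 KO replicate 73). Its nearest relative was Ighv1-52, and 70.6% of its 100-base stretches were unique, against 86.9% for Ighv1-50, so some of these reads are uncertain. The remaining genes past that threshold for usage were Ighv1-11, Ighv1-31 and Ighv2-9, with log2 fold changes of 1.35, 2.00 and 0.94, and Ighv1-12, Ighv1-84 and Ighv13-2, with −0.82, −0.87 and −0.56. Without WT replicate 77, that of Ighv1-12 was −0.48. The lowest limma adjusted p among these 6 was 0.74, and for Ighv1-84 82.9% of the 100-base stretches were unique. Ighv1-31 had 82, 29, 12, 229 and 39 reads in DUSP6 KO and 3, 10, 51, 19 and 13 in WT. Its usage overlapped between the groups and was highest in DUSP6 KO replicate 01, at 0.962%.

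The members Ighv11-1, Ighv11-2 and Ighv12-3 encode heavy chains with which B-1 cells, a self-renewing B cell type that makes natural IgM, bind phosphatidylcholine. Ighv12-3 was at 0.0980, 0.935, 0.4997, 0.652 and 0.361% in DUSP6 KO and at 0.0418, 0.192, 0.0390, 0.0413 and 0.252% in WT. DUSP6 KO replicate 26 lay within the WT range and the other 4 DUSP6 KO spleens above it. The log2 fold change of usage was 2.30 (standard error 0.70, unadjusted p = 0.0077, limma adjusted p = 0.60), and no 100-base stretch was shared with another transcript. Ighv11-2 was at 0.382, 0.198, 0.170, 0.269 and 0.194% in DUSP6 KO and 0.503, 0.301, 0.309, 0.205 and 0.241% in WT, with overlap (log2 fold change of expression −0.57, unadjusted p = 0.028, limma adjusted p = 0.79; of usage −0.36, limma adjusted p = 0.97, and −0.17 without WT replicate 65, −0.53 without DUSP6 KO replicate 26 and −0.096 without WT replicates 65 and 67), and 82.6% of its 100-base stretches were unique. Ighv11-1 had 0 to 4 reads per library. The summed FPKM of 8 B-1 cell genes such as Cd5 and Spn was 65.5 to 72.4 in WT spleens and 69.2 to 79.96 in DUSP6 KO spleens. Cd5 was also listed as a T cell gene, so this sum does not measure B-1 cells alone.

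V genes known from antibody responses to model antigens were also compared, with Ighv5-2 in the same list. Ighv1-72, used against nitrophenyl haptens, is given above. Ighv7-1, used against phosphorylcholine, was at 1.61, 1.32, 0.464, 2.75 and 1.18% in DUSP6 KO and 3.01, 0.861, 1.09, 1.04 and 1.32% in WT, with means of 1.47 and 1.46%. Ighv5-2, which rearranges often in early B cell progenitors, was at 0.0834 ± 0.0763% in DUSP6 KO and 0.0609 ± 0.0288% in WT, and Ighv14-3 at 0.608 ± 0.106% and 0.814 ± 0.602% (SD, n = 5 each). With Ighv1-53 and Ighv3-6, 0 of these 6 genes had an unadjusted p under 0.05 on the expression scale (2.62% of all genes were higher and 3.03% lower), and their median log2 fold change was −0.20. Each of the 6 overlapped between the groups.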

How the data were processed

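Poly-A RNA of 10 spleens, 5 DUSP6 KO and 5 WT, was sequenced in pairs of reads, with 1 library per spleen. The authors aligned reads with Hisat2 and counted them per gene with featureCounts (version 1.5.0-p3 in the submitters' processing notes), and deposited FPKM values with a gene length for 54532 genes. The build in those notes, hg38, is human and the gene identifiers are of mouse, and all 113 Ighv genes have the coordinates of GENCODE M21 (GRCm38), which were used. Use of strand and of reads with several matches is not given in the sources used here. FPKM times length gave whole reads (100% of values within 0.001 read), and so the depth. Such reads cover counting error only.

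Usage was the share of the summed Ighv FPKM of a library. Expression and usage were each fitted with limma (version 3.58.1, R version 4.3.3; lmFit, then eBayes with a trend) on log2(FPKM + 0.1). The 21296 genes whose mean FPKM was 0.1 or more entered both fits, and p-values were adjusted over all of these by the Benjamini-Hochberg method. Fold changes on this scale understate those of low genes. Sums, families, regions and evenness were given no test. Each spleen came from a separate mouse and counted as 1 replicate, and no library was found to repeat another (20 pairs of the same group, chi-square per Ighv gene at least 33.6).

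The members, gene lists and alternatives were chosen with earlier results of these data known. Named genes were the 15 with the highest mean share, any with an adjusted p of 0.05 or less, up to 5 with the largest positive and 5 with the largest negative usage change among those with an unadjusted p under 0.05 and no overlap, 8 with the largest ratio of highest to median share (at least 2% in 1 library), the members of 2 V gene lists, and both ends of the locus. Alternatives were pseudocounts of 1 and 0.01, a minimum of 1 FPKM or none, a robust trend, array weights, limma voom on the recovered reads, quantile normalization, rescaling without immunoglobulin and haemoglobin genes, shares of reads, 2 other denominators and leaving out each library. Leaving out WT replicates 65 and 67, or DUSP6 KO replicates 26 and 73, was added after the data were seen. Plots used matplotlib 3.10.9 under Python 3.11.15.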

Additional observations from a re-analysis of the deposited data

Results flagged for a closer look

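Among 68 groups of 5 values (29 named genes, the summed level, evenness and 3 regions, in each genotype), 11 held a spleen far from the others by Dixon's rule, which flags about 1 in 20 groups by chance. In DUSP6 KO these were the usage shares of Ighv1-26 in replicate 03 (13.7%, others 4.59 to 5.67%), Ighv3-6 in replicate 01 (11.3%, others 2.80 to 4.27%), Ighv2-4 in replicate 26 (0.370%, others 0.0857 to 0.165%) and Ighv1-62-2 in replicate 73 (3.93%, others 0.00390 to 0.0970%). In WT they were Ighv3-6 in replicate 83 (9.92%, others 2.50 to 3.84%), Ighv1-66 (8.22%, others 0.276 to 0.508%) and Ighv1-85 (5.50%, others 0.359 to 0.986%) in replicate 73, and Ighv7-1 in replicate 65 (3.01%, others 0.861 to 1.32%). The other 3 were in WT replicate 67: Ighv1-62-2 (1.07%, others 0.0952 to 0.218%), Ighv1-75 (4.94%, others 0.851 to 1.57%) and Ighv7-3 (3.40%, others 1.17 to 1.81%). Genes that were named for a high share in 1 spleen were chosen for this pattern.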

How the results depend on the processing

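The sources used here describe no pairing of mice, so no paired analysis was run. Replicate number 73 occurs in both groups and is not described as a pair. The count of Ighv genes past the adjusted threshold of 0.05 was 0 under every alternative run, on both scales. At the unadjusted threshold, 5 lower genes for expression became 3 with no filter (1.42% of all genes in that fit), 11 with array weights (4.34%), and 2 to 12 when each library was left out (2.29 to 4.4%). For usage, 5 lower genes became 3 with no filter (1.42%), and 3 to 6 when each library was left out (2.3 to 4.39%). Without WT replicates 65 and 67, the 8 higher and 5 lower genes for expression became 3 and 22 (2.24 and 2.81% of all genes in that fit), and the 9 higher genes for usage became 20 (2.32%). The cause was not tested. The 15 genes past the unadjusted threshold on either scale kept the sign of their fold change under each alternative that tested them. The difference in effective number of genes, 2.39, was −0.389 without DUSP6 KO replicates 26 and 73, 7.20 without WT replicates 65 and 67, and 0.263 (without WT replicate 77) to 4.53 (without WT replicate 65) with each library left out. The distal share differed by −4.80 percentage points, by −6.11 to −2.67 with each library left out (−2.87 without DUSP6 KO replicate 01, −2.67 without WT replicate 77), by −8.0 without DUSP6 KO replicates 26 and 73 and by −6.54 without WT replicates 65 and 67. Members with few reads, such as Ighv11-1, allow no statement at this depth.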
